A study of Mus musculus with 36 samples.

Results

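The genes described here are 9 of the 27562 genes in a table of gene expression from sorted mouse lung AΦ and monocytes, chosen by symbol. They are Cd200, Cd200r1, Sirpa, Cd47, Siglecf, Siglece, Siglec1, Cd33 and Pirb, which encode receptors of myeloid cells, most of them inhibitory, and the ligands of 2 of them. The cells came from male C57BL/6J hosts carrying CD45.2 that were irradiated with the chest shielded, given busulfan, and transplanted with marrow carrying CD45.1 from B6.SJL donors. The mice of all groups therefore share the chimerism, the irradiation and the busulfan. The marrow was given after the irradiation and the busulfan, so donor cells differ from host cells in strain and in this treatment. Neither can be told apart from origin. The mice breathed filtered air (FA) or concentrated PM2.5 for 4-weeks or 32-weeks, and each of the 12 groups held 3 libraries from 3 mice, 36 libraries in all. Per the paper, 3 mice of each exposure and time were picked for sequencing, so the populations of 1 exposure and time would come from the same mice. The labels do not say which libraries share a mouse. Comparisons between cell types or origins were therefore treated as unpaired, which leaves this sharing out of account. The AΦ groups were tissue-resident AΦ of the host (TR-AΦ) at 4-weeks and 32-weeks and marrow-derived AΦ of the donor (BM-AΦ) at 32-weeks, each under FA and under PM2.5. Monocytes were those of the host (CD45.2) at 4-weeks and of either donor (CD45.1) or host at 32-weeks, again under both exposures. In the 32-weeks samples the labels tell the origins apart only by a digit. That digit was read by the key published for the AΦ, lower for donor and higher for host, and the monocytes were read the same way. Duration of exposure, age of the mice and time since the transplant go together here and cannot be told apart.

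Inhibitory receptors of this kind set a threshold for activation of phagocytes. CD200R, on myeloid cells, binds CD200 on neighbouring cells such as the airway epithelium and recruits the Dok adaptors. SIRPα binds CD47, a protein present on nearly every cell that protects it from being eaten, and recruits the phosphatases SHP-1 and SHP-2 to phosphorylated tyrosine motifs called ITIMs. Siglec F, Siglec E and CD33 bind sialic acid on glycans and belong to the CD33-related group of Siglecs. Siglec-1, also called sialoadhesin or CD169, binds sialic acid too but lacks ITIMs and acts in adhesion and uptake. PIR-B carries ITIMs and binds MHC class I. In mouse lung, Siglec F is the surface marker commonly used to tell AΦ from other phagocytes.

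The 9 genes lie on 3 chromosomes of mm10. Siglecf (chr7:43351341-43359531, + strand), Cd33 (chr7:43524216-43544428, - strand) and Siglece (chr7:43651070-43660161, - strand) share a neighbourhood, with 164684 bases between Siglecf and Cd33 and 106641 bases between Cd33 and Siglece. Pirb lies elsewhere on chromosome 7 (chr7:3711409-3720382, - strand). Cd200r1 (chr16:44765736-44794978, + strand) and Cd200 (chr16:45382135-45409053, - strand), a receptor and its ligand, are 587156 bases apart, and Cd47 (chr16:49855618-49915010, + strand) is on the same chromosome. Sirpa (chr2:129592839-129632228, + strand) and Siglec1 (chr2:131069220-131086765, - strand) are on chromosome 2. None of the 9 overlaps another gene of the table.

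The 250 bases before the RefSeq start of the 4 genes on chromosome 7 are shown because these genes carry the opposite ends of the comparison of AΦ with monocytes: Siglecf higher in AΦ, Pirb and Siglece higher in monocytes, and Cd33 in between. They were read from RefSeq on GRCm38.p6, each on the strand of its gene, 5′ to 3′. Capitals mark each match of GAGGAA, or of its reverse complement TTCCTC, the core bound by PU.1, an ETS factor of myeloid cells. The windows are chr7:43351091-43351340 for Siglecf, chr7:43533172-43533421 for Cd33, chr7:43660162-43660411 for Siglece and chr7:3720383-3720632 for Pirb. The RefSeq start of Cd33 lies inside the longer gene that GENCODE gives.
Siglecf: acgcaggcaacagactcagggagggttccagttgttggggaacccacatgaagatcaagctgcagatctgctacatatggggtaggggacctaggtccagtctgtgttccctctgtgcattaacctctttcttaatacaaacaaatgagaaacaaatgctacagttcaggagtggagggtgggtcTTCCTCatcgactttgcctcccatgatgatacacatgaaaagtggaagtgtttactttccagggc
Cd33: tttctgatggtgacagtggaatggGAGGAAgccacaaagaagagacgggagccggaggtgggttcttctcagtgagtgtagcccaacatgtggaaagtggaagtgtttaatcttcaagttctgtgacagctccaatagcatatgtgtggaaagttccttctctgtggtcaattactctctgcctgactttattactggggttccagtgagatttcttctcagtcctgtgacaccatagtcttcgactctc
Siglece: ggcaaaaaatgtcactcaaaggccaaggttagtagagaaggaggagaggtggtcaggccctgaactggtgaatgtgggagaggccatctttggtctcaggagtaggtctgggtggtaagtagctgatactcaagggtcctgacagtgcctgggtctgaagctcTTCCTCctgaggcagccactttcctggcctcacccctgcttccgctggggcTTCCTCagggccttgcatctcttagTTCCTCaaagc
Pirb: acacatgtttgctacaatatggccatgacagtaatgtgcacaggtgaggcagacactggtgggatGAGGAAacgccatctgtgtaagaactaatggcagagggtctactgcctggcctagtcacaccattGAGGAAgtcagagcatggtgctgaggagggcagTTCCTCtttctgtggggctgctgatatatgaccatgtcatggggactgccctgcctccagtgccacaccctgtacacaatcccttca
Positions are counted back from the transcript start. Siglecf had 1 match, at -65, and Cd33 had 1, at -226. Siglece had 3, at -87, -36 and -11, and Pirb had 3, at -185, -120 and -87. Of 32851 promoters of the same length 7639 held at least 1 match (23.3%) and 141 held at least 3 (0.429%). The windows of Cd200 and Cd47 held none, and no window was used for Cd200r1, Sirpa and Siglec1. Between the promoters of Siglecf and Cd33, the longest run of shared bases was the following 16, starting at -27 in Siglecf and at -157 in Cd33.
shared run: aaagtggaagtgttta
Only these 2 of the 32851 promoters held this run on either strand. The other 5 pairs of the 4 promoters shared at most 9 bases. A match of letters is a description and shows no binding.

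Expression is given as FPKM, the unit the authors deposited, which scales the fragments of a gene by transcript length and by the fragments mapped in the library. It allows levels to be set side by side between genes, but carries no depth, so no counting error can be given. Tests used log2(FPKM + 1), a scale on which changes of low genes come out too small. Within a library the FPKM of all genes summed to between 1839577 and 3339020. The cell labels were checked by summed marker genes. The sum of 14 AΦ markers other than Siglecf was 8651 to 16357 FPKM in the 18 AΦ libraries and 395 to 2046 in the 18 monocyte libraries, and that of 12 monocyte markers was 135 to 693 and 2333 to 6189. Of the AΦ markers, Marco, Cidec and Krt79 were listed at 0 in 8, 9 and 6 of the 18 monocyte libraries. Both 4-weeks monocyte libraries numbered 2 stood apart, with 408 (FA) and 1156 (PM2.5) FPKM of 7 neutrophil markers against 71.3 to 87.7 in the other 4, and 3.04 and 3.88 FPKM of 8 interstitial macrophage markers. The library numbered 1 of CD45.2 monocytes under PM2.5 at 32-weeks had the highest AΦ marker sum of any monocyte library, 2046 FPKM, with 1055 in the next. In sorted populations fewer cells of a type and less RNA per cell cannot be told apart.

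Siglecf was the gene of the 9 with the widest gap between AΦ and monocytes, and Sirpa was the most abundant in both. In the 18 AΦ libraries the order by median was Sirpa at 480 FPKM (395 to 559), Cd47 at 223 (160 to 300.4), Siglecf at 113 (69.6 to 157), Siglec1 at 112 (77.1 to 159) and Cd33 at 64.4 (39.6 to 94.9). It went on with Pirb at 36.5 (25.6 to 47.6), Cd200r1 at 27.1 (16.9 to 39.0), Siglece at 12.9 (6.99 to 19.3) and Cd200 at 4.21 (1.57 to 19.1). Sirpa stood clear of Cd47, and Cd47 of Siglecf and Siglec1, whereas Siglecf and Siglec1 overlapped and every later gene overlapped the one before it. In the 18 monocyte libraries the order was Sirpa at 227 FPKM (157 to 340.2), Cd47 at 157 (86.9 to 250), Pirb at 67.9 (44.8 to 115), Cd33 at 38.7 (17.2 to 106) and Siglece at 23.9 (13.8 to 36.3). The lowest were Siglec1 at 9.63 (2.92 to 24.4), Cd200r1 at 3.20 (0.142 to 9.58), Siglecf at 0.751 (0.179 to 8.99) and Cd200 at 0.371 (0 to 4.10). All neighbours in the monocyte order overlapped. Cd200 was listed at 0 in 2 of the 18 monocyte libraries.

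**Figure D1:**
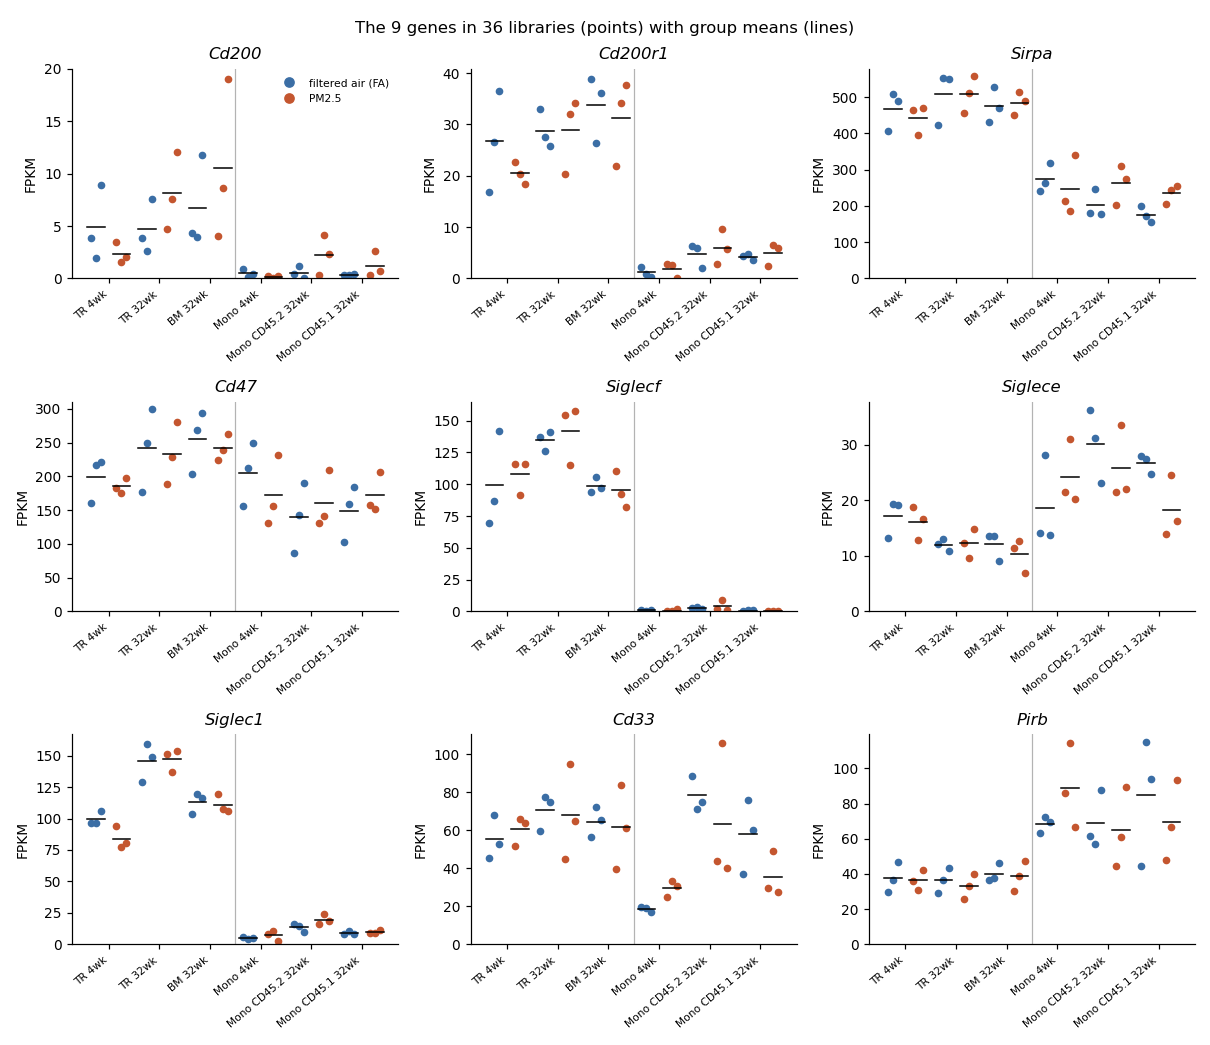
FPKM of the 9 genes (linear axis, 1 panel a gene) in the 3 libraries of each of the 12 groups, with 1 point a library and a line at the mean of 3. Siglecf was 69.6 to 157 FPKM in AΦ and 0.179 to 8.99 in monocytes, whereas Pirb lay at 25.6 to 47.6 and 44.8 to 115.

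AΦ and monocytes were compared within each origin and time point, 6 libraries against 6 over both exposures, which asks how far the receptor set of AΦ differs from that of lung monocytes. Siglecf, Siglec1, Cd200r1, Cd200 and Sirpa were higher in AΦ in all 3 comparisons, and Pirb was lower in all 3 (limma, Benjamini-Hochberg adjusted over 13307 genes). At 4-weeks 6 of the 9 genes were higher and 1 was lower, beside 22.6% and 25.5% of all genes. For the CD45.1 cells at 32-weeks 6 were higher and 2 lower, beside 27.1% and 23.8%. For the CD45.2 cells at 32-weeks the counts were again 6 and 2, beside 23.6% and 23.7%. The median log2 difference of the 9 genes was 1.26, 1.24 and 1.15, with -0.02, 0.03 and 0 for all genes. The 3 comparisons use different libraries but share the estimate of variance, and those at 32-weeks would come from the same mice. They are not independent of each other.

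Among the Siglecs, Siglecf and Siglec1 went with AΦ and Siglece with monocytes. Siglecf was 69.6 to 142 FPKM in TR-AΦ and 0.179 to 1.62 in CD45.2 monocytes at 4-weeks, a ratio of means of 135. The log2 difference was 5.92 ± 0.25 (SE), adjusted p = 1.78e-16. At 32-weeks the ratio was 174 for CD45.1 cells (log2 5.98, adjusted p = 1.48e-16) and 42.4 for CD45.2 cells (log2 5.22, adjusted p = 4.03e-15). No AΦ library came near a monocyte library. The gate stated for the sequenced AΦ was on CD64, CD11c and CD11b and does not name Siglec F. The paper's flow cytometry methods also give high CD11c with high Siglec F as another definition of AΦ. Whether Siglec F played a part in the sort is therefore not settled. The monocyte median of Siglecf was 0.666% of the AΦ median, and the same share for the summed FPKM of the 14 AΦ markers was 6.21%. Abundant markers weigh most in that sum, such as Chil3, with medians of 4919 FPKM in AΦ and 236 in monocytes. Single markers differed. Cidec (132 and 0.0737) and Krt79 (106 and 0.0866) had a wider gap than Siglecf (113 and 0.751), and others, such as Itgax (66.7 and 13.3), a narrower one.

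Siglec1, which no sort used, was 77.1 to 106 FPKM in TR-AΦ at 4-weeks and 2.92 to 10.2 in monocytes. It was 3.80 ± 0.17 (log2, SE) higher, adjusted p = 3.28e-16, and the ratio of means was 15.2. The ratios at 32-weeks were 12.1 (CD45.1) and 8.85 (CD45.2), and the groups did not overlap in any of the 3. Siglece ran the other way, at 6.99 to 13.7 FPKM in BM-AΦ against 14.0 to 28.1 in CD45.1 monocytes and at 9.64 to 14.9 against 21.5 to 36.3 for CD45.2 cells at 32-weeks. It was lower in AΦ by a log2 of -0.93 (adjusted p = 0.000174) and -1.12 (adjusted p = 1.76e-05), without overlap. At 4-weeks the Siglece ranges overlapped (12.8 to 19.3 and 13.8 to 31.1 FPKM) and the difference of -0.30 missed the threshold (adjusted p = 0.193). Cd33, the third gene of the cluster, was 2.41-fold higher in TR-AΦ at 4-weeks, at 45.6 to 68.1 FPKM against 17.2 to 33.4 without overlap (log2 1.26 ± 0.22, adjusted p = 3.13e-05). At 32-weeks its ranges overlapped in both origins, with log2 differences of 0.49 (adjusted p = 0.0717) and 0.02 (adjusted p = 0.979). For the CD45.1 cells it passed when any of 3 libraries was left out, the BM-AΦ PM2.5 library 0 (0.63, adjusted p = 0.0245), the monocyte FA library 1 (0.60, adjusted p = 0.0360) or the monocyte PM2.5 library 1 (0.62, adjusted p = 0.0293).

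Both partners of the CD200 axis were higher in AΦ. The receptor Cd200r1 was 16.9 to 36.6 FPKM in TR-AΦ at 4-weeks and 0.142 to 2.85 in monocytes, a log2 difference of 3.39 ± 0.31 (adjusted p = 4.32e-10). The differences at 32-weeks were 2.60 for CD45.1 and 2.32 for CD45.2 cells, and no monocyte library reached the AΦ range in any of the 3. The ligand Cd200 was low throughout, at 1.57 to 8.94 FPKM in TR-AΦ and 0 to 0.863 in monocytes at 4-weeks (log2 1.68 ± 0.37, adjusted p = 0.000454). Its differences at 32-weeks were 2.34 (CD45.1) and 1.73 (CD45.2). For the CD45.2 cells at 32-weeks the Cd200 ranges overlapped, at 2.64 to 12.1 and 0 to 4.10 FPKM. The 4.10 came from the PM2.5 monocyte library 1, which had the highest AΦ marker sum, and the next highest monocyte value was 2.38. These monocytes also held 872 to 3325 FPKM of the interstitial macrophage markers, whose part in the comparisons of CD45.2 cells was not tested. The reads of Cd200r1 may be shared with those of its close copies such as Cd200r4, and how the authors' counting split them was not tested.

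Of the CD47 and SIRPα pair, Sirpa was 395 to 508 FPKM in TR-AΦ at 4-weeks and 187 to 340.2 in monocytes, a difference of 0.83 ± 0.14 (log2, SE; adjusted p = 1.43e-05). At 32-weeks it was 1.24 (CD45.1) and 1.15 (CD45.2), and the ranges did not overlap in any of the 3. Cd47 was 160 to 222 and 131 to 250 FPKM at 4-weeks, which overlapped, with a difference of 0.05 (adjusted p = 0.869) that became 0.46 (adjusted p = 0.0497) with quantile normalization. At 32-weeks Cd47 was higher in AΦ by 0.65 (adjusted p = 0.00678) and 0.69 (adjusted p = 0.00469), but both calls were lost with the PM2.5 libraries alone (0.50, adjusted p = 0.165, and 0.55, adjusted p = 0.137). Pirb, which encodes PIR-B, was 29.5 to 47.0 FPKM in TR-AΦ and 63.4 to 115 in monocytes at 4-weeks, lower by a log2 of -1.05 ± 0.21 (adjusted p = 0.000161). At 32-weeks the differences were -0.87 and -0.91 (adjusted p = 0.00116 and 0.000826), with ranges that overlapped for the CD45.1 cells (30.2 to 47.6 and 44.8 to 115 FPKM) and not for the CD45.2 cells (25.6 to 43.2 and 44.8 to 89.2). Pirb has near-identical Pira copies and Sirpa has close Sirpb relatives, so reads could have been split between them.

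**Figure D2:**
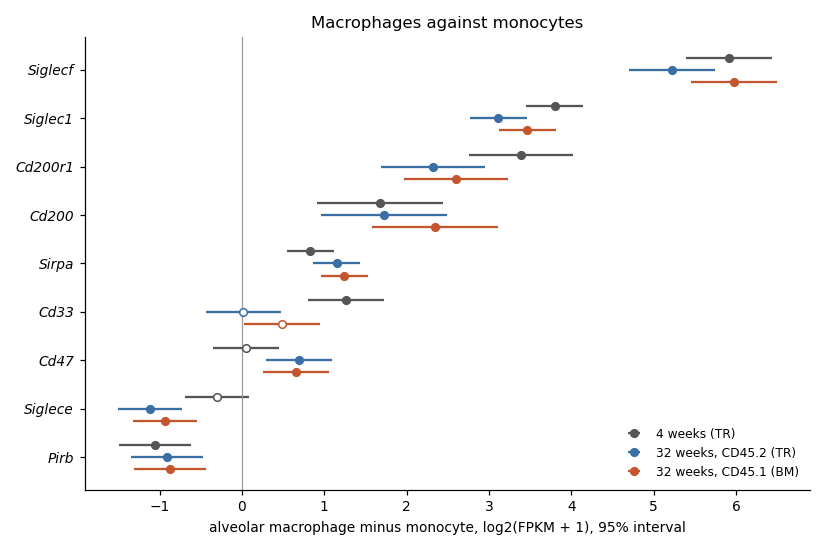
Differences between AΦ and monocytes of the 9 genes (log2(FPKM + 1), points with 95% confidence intervals) at 4-weeks and, for CD45.1 and CD45.2 cells, at 32-weeks, with filled points past the threshold. Siglecf stood at 5.92, 5.98 and 5.22, and Pirb and Siglece below 0 in all 3.

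Time was compared within the host cells, 32-weeks against 4-weeks over both exposures. Siglec1 was the only 1 of the 9 genes past the threshold in TR-AΦ, where it rose, beside 2.56% of all genes that were higher and 3.35% that were lower (limma). Under FA at 4-weeks Siglec1 was 96.7, 96.6 and 106 FPKM, and under PM2.5 it was 93.8, 77.1 and 80.6. At 32-weeks it was 129, 159 and 149 FPKM under FA and 152, 137 and 154 under PM2.5. All 6 later libraries were above all 6 earlier ones. The rise was 0.67 ± 0.08 (log2, SE; 95% interval 0.50 to 0.85), adjusted p = 0.000284, and an exact two-sided permutation test of 6 against 6 libraries gave p = 0.00216, the smallest it can give. It was 0.64 to 0.72 with any 1 library left out, and with the PM2.5 libraries alone it was 0.81 (adjusted p = 0.00346). With the FA libraries alone it was 0.54 and missed the threshold (adjusted p = 0.0508). Between 4-weeks and 32-weeks the AΦ marker sum went from 8651 to 11503 FPKM to 10188 to 15409, the monocyte marker sum from 245 to 693 to 135 to 406, and the interstitial macrophage marker sum from 37.0 to 577 to 18.4 to 72.9. Their part in the result was not tested.

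Siglecf moved by 0.45 in TR-AΦ (103.7 to 139 FPKM by median) with adjusted p = 0.103, and of the 12 libraries only the 4-weeks FA library 2, when left out, took it past the threshold (0.59, adjusted p = 0.0117). Siglece moved by -0.42 with adjusted p = 0.150, from a median of 17.7 to 12.2 FPKM. Cd200, Cd200r1, Sirpa, Cd47, Cd33 and Pirb lay between -0.10 and 0.72 on the log2 scale, and none passed the threshold.

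In CD45.2 monocytes 4 of the 8 genes tested rose with time and none fell past the threshold, beside 7.06% of all genes higher and 7.83% lower. Cd200 was below the filter on low values in monocytes and was not tested. Cd33 had the clearest separation. At 4-weeks it was 19.5, 19.0 and 17.2 FPKM under FA and 24.9, 33.4 and 30.5 under PM2.5. At 32-weeks it was 88.5, 71.4 and 75.1 FPKM under FA and 43.9, 106 and 40.2 under PM2.5. The 2 times did not overlap, and the rise was 1.48 ± 0.24 (log2, SE), adjusted p = 0.00112. With the FA libraries alone it was 2.02 (adjusted p = 0.00380), and with the PM2.5 libraries alone it was 0.94 and missed the threshold (adjusted p = 0.166).

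Siglec1 rose in monocytes by 1.36 ± 0.22, adjusted p = 0.00110, from 2.92 to 10.2 FPKM at 4-weeks to 10.1 to 24.4 at 32-weeks, ranges that touched in 1 library each. Cd200r1 rose by 1.37 (adjusted p = 0.0238) from 0.142 to 2.85 FPKM to 2.03 to 9.58. Siglecf rose by 1.14 (adjusted p = 0.0326) from 0.179 to 1.62 FPKM to 1.36 to 8.99, still far below any AΦ library. Both overlapped between the times. The highest Siglecf, Siglec1, Cd200r1 and Cd33 of all monocytes, at 8.99, 24.4, 9.58 and 106 FPKM, came from the 1 PM2.5 library with the highest AΦ marker sum. Sirpa, Cd47, Siglece and Pirb differed by -0.35 to 0.40 and did not pass.

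Other markers moved with time in these monocytes. The 8 interstitial macrophage markers, C1qa among them, summed to 3.04 to 410 FPKM at 4-weeks and 872 to 3325 at 32-weeks, without overlap. The 12 monocyte markers fell from 4648 to 6189 FPKM to 2333 to 5129. The 7 T cell markers summed to at most 5.11 FPKM at 4-weeks and 11.5 to 38.3 at 32-weeks, the latter mostly Cd4. Over all monocyte libraries Cd4 reached 37.6 FPKM and the next of these markers, Lck, 2.55. Plasmacytoid dendritic cell markers, mostly Tcf4, summed to 12.3 to 16.3 and 23.5 to 42.4. Among monocytes Tcf4 reached 37.7 FPKM, Siglech 9.85, Ly6d 2.19 and Ccr9 0.612. The part of these markers in the rise of Cd33, Siglec1, Cd200r1 and Siglecf was not tested. Without the pair of 4-weeks libraries numbered 2, left out after seeing the data, 3 of the genes were past the threshold and Cd200r1 was not (0.95, adjusted p = 0.122). Without these and the CD45.2 library of high AΦ markers, Siglecf was 0.99 (adjusted p = 0.0411), Siglec1 1.04 (adjusted p = 0.00487), Cd33 1.25 (adjusted p = 0.0100) and Cd200r1 0.77 (adjusted p = 0.238). With any 1 of the 12 libraries left out Cd33 and Siglec1 stayed past the threshold in 12 of 12 fits, Cd200r1 in 6 and Siglecf in 5. Both Cd200r1 and Siglecf were lost, and the count fell to 2, without the 4-weeks FA library 1 or 2, the 32-weeks FA library 0 or 1, or the 32-weeks PM2.5 library 1. Without the last of these Siglecf was 0.82 (adjusted p = 0.0629) and Cd200r1 1.19 (adjusted p = 0.0673). Cd200r1 was also lost without the 4-weeks PM2.5 library 2 (1.09, adjusted p = 0.0561), and Siglecf without the 4-weeks PM2.5 library 0 (1.04, adjusted p = 0.0712) or 1 (1.05, adjusted p = 0.0727).

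**Figure D3:**
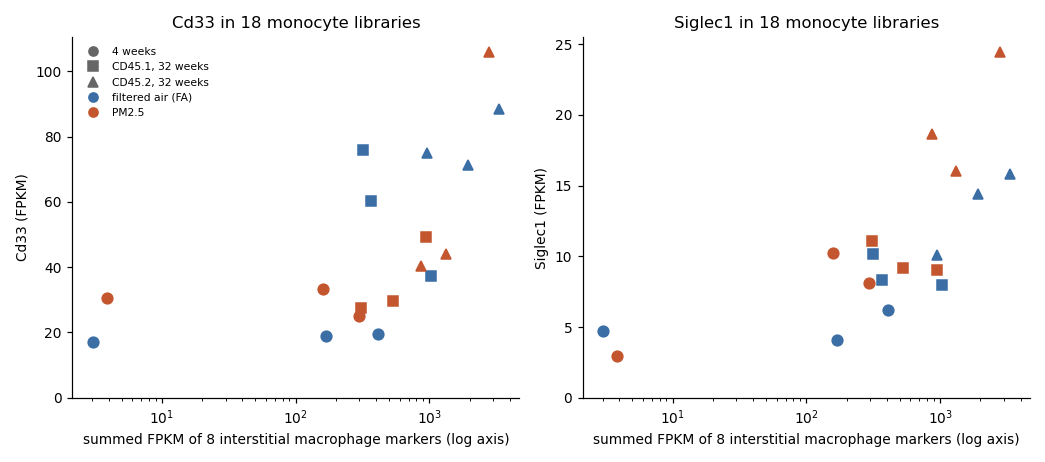
Cd33 and Siglec1 (FPKM, linear axis) in the 18 monocyte libraries against the summed FPKM of the 8 interstitial macrophage markers (log axis), with 1 point a library. CD45.2 monocytes at 32-weeks, with sums of 872 to 3325, hold the highest value of each gene, 106 and 24.4 FPKM.

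The difference in the effect of time between AΦ and monocytes was tested as an interaction. Cd33 was the 1 of the 9 genes past the threshold, beside 7.88% of all genes. Its change in TR-AΦ was 0.23 and that in CD45.2 monocytes was 1.48, and the difference was -1.24 ± 0.32 (log2, SE; 95% interval -1.89 to -0.59), adjusted p = 0.0130. Siglece (-0.82, adjusted p = 0.0603), Siglec1 (-0.69, adjusted p = 0.0775) and Cd200r1 (-1.07, adjusted p = 0.144) did not pass. For Cd33 the difference was -1.23 (adjusted p = 0.0367) without the 4-weeks monocyte libraries numbered 2, and -1.01 (adjusted p = 0.0667) with the third library also left out. With the PM2.5 libraries alone it was -0.83 (adjusted p = 0.519), and with the FA libraries alone -1.66 (adjusted p = 0.0387). With any 1 of the 24 libraries left out Cd33 stayed past the threshold, at -1.38 to -1.03. Siglece passed without the TR-AΦ FA library 0 of 4-weeks (adjusted p = 0.0455), the monocyte FA library 1 (0.0152) or PM2.5 library 1 (0.0386) of 4-weeks, or the CD45.2 monocyte FA library 2 of 32-weeks (0.0360). Siglec1 passed without the last of these (adjusted p = 0.0402) or the 4-weeks monocyte PM2.5 library 1 (0.0157).

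**Figure D4:**
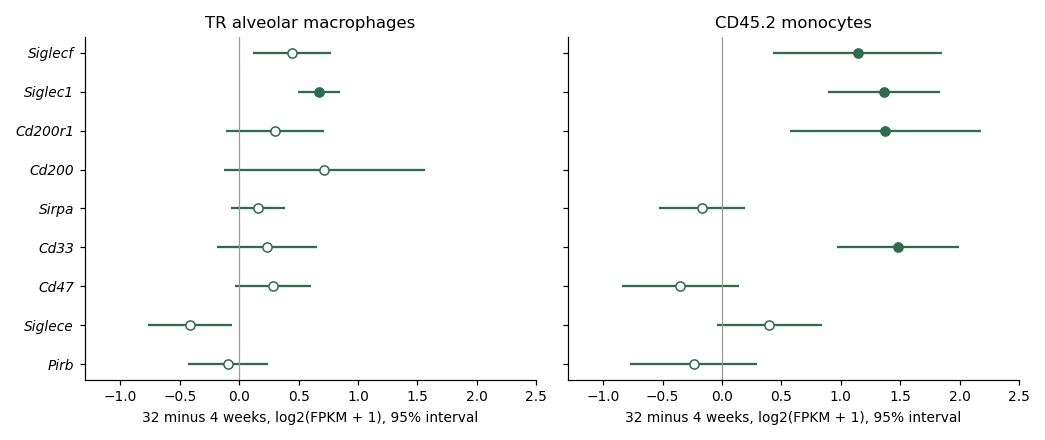
Differences between 32-weeks and 4-weeks (log2(FPKM + 1), points with 95% confidence intervals) of the 9 genes in TR-AΦ and of 8 in CD45.2 monocytes, with filled points past the threshold. Siglec1 was at 0.67 in TR-AΦ and 1.36 in monocytes, and Cd33 at 0.23 and 1.48.

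Origin was compared at 32-weeks, donor against host, over both exposures. None of the 9 genes differed between BM-AΦ and TR-AΦ past the threshold (limma), beside 0.134% of all genes higher and 0.182% lower. At an unadjusted p under 0.05 there were 944 of 12665 genes and 2 of the 9, Siglec1 and Siglecf. The other Siglecs of the 9, Siglece (-0.13, unadjusted p = 0.459) and Cd33 (-0.14, unadjusted p = 0.502), were not among them (limma). Siglec1 was 103 to 120 FPKM in BM-AΦ and 129 to 159 in TR-AΦ, and Siglecf was 82.3 to 111 and 115 to 157. Neither overlapped. The differences were -0.38 ± 0.08 (95% interval -0.56 to -0.21, adjusted p = 0.0747) and -0.51 ± 0.15 (95% interval -0.83 to -0.18, adjusted p = 0.283). The exact permutation test of 6 against 6 gave 0.00216 for each, the smallest it can give. Adjusted over the 117 tests of this kind it was 0.0106. Those tests cover only the 9 genes, with AΦ against monocytes among them, and not all genes as in limma. Conventional dendritic cell markers were 9.26 to 31.4 FPKM in BM-AΦ and 1.51 to 4.86 in TR-AΦ, interstitial macrophage markers 39.4 to 318 and 18.4 to 72.9, and their part was not tested. AΦ markers did not separate the origins, at 9360 to 16357 and 10188 to 15409 FPKM.

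For CD45.1 against CD45.2 monocytes 0 of 8 genes passed, beside 0.0778% of all genes higher and 0.591% lower (limma). At an unadjusted p under 0.05 there were 1233 of 12856 genes and 3 of the 8. Siglecf was 0.282 to 0.763 FPKM in CD45.1 and 1.36 to 8.99 in CD45.2 monocytes, without overlap (-1.26, adjusted p = 0.126). Siglec1 was 7.95 to 11.1 and 10.1 to 24.4 (-0.73, adjusted p = 0.197), and Cd33 was 27.4 to 75.9 and 40.2 to 106 (-0.60, adjusted p = 0.394). These 2 overlapped. Interstitial macrophage markers were 310 to 1034 FPKM in CD45.1 and 872 to 3325 in CD45.2 monocytes. T cell markers were 0.614 to 3.49 and 11.5 to 38.3, the latter mostly Cd4. The part of these markers was not tested. The difference of the effect of origin between AΦ and monocytes passed for none of the 9, beside 1.08% of all genes (limma). There, 1370 of 13307 genes and 1 of the 9 had an unadjusted p under 0.05. That 1 was Siglecf (0.75, adjusted p = 0.471). The contrasts of time and of origin share the CD45.2 cells of 32-weeks.

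PM2.5 was compared with FA in each of the 6 populations, 3 libraries against 3. None of the 9 genes passed the threshold in any of them (limma), and none had an unadjusted p under 0.05. The shares of all genes called were 0.0079% in TR-AΦ at 4-weeks, 0% in TR-AΦ and 0.0158% in BM-AΦ at 32-weeks, 0.00778% in monocytes at 4-weeks, and 0% in CD45.1 and 0% in CD45.2 monocytes at 32-weeks. Genes with an unadjusted p under 0.05 numbered 372, 396, 259, 272, 609 and 547 in that order. An exact permutation test of 3 against 3 cannot go below 0.1.

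Cd200 had the largest standard error of the 9 genes in AΦ. In TR-AΦ at 4-weeks it was 3.83, 1.99 and 8.94 FPKM under FA and 3.46, 1.57 and 2.02 under PM2.5. In TR-AΦ at 32-weeks it was 3.86, 2.64 and 7.60 under FA and 4.74, 7.58 and 12.1 under PM2.5. In BM-AΦ it was 4.37, 3.92 and 11.8 under FA and 4.05, 8.61 and 19.1 under PM2.5. The exposures overlapped in all 3 populations, and in 5 of the 6 groups the library numbered 2 was highest. The log2 differences were -0.69 (95% interval -1.88 to 0.51), 0.69 (-0.50 to 1.89) and 0.51 (-0.69 to 1.71), with exact permutation p of 0.3, 0.3 and 0.6. The difference between the effects of exposure at 32-weeks and 4-weeks in TR-AΦ was 1.38 ± 0.79 (95% interval -0.31 to 3.07), adjusted p = 1, and none of the 9 genes passed it, beside 0.0079% of all genes (limma; 380 genes and 0 of the 9 at an unadjusted p under 0.05). For the interaction of exposure with origin none passed either, beside 0.0158% (240 genes and 0 of the 9), and Cd200 stood at -0.18.

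**Figure D5:**
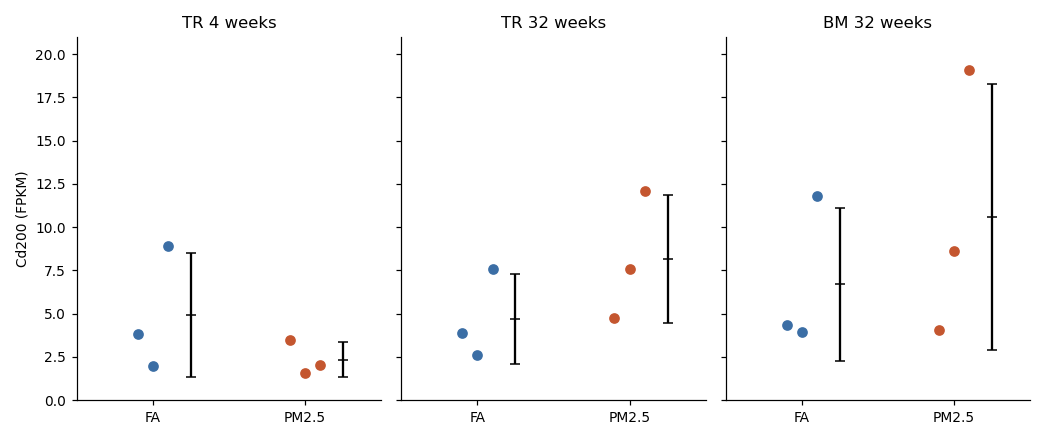
Cd200 (FPKM) in each AΦ library under FA and PM2.5, with bars for the mean and SD of 3 libraries. Under PM2.5 the values lay at 1.57 to 3.46 in TR-AΦ at 4-weeks, 4.74 to 12.1 in TR-AΦ and 4.05 to 19.1 in BM-AΦ at 32-weeks, and each overlapped its FA group.

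In 5 of the 54 pairings of a gene with a population the 3 PM2.5 and 3 FA libraries did not overlap, each with an exact permutation p of 0.1. Siglec1 in TR-AΦ at 4-weeks averaged 83.9 FPKM under PM2.5 and 99.7 under FA, 1 of the 9 genes beside 5.82% of all genes. Cd33 in 4-weeks monocytes averaged 29.6 and 18.6, 1 of 9 beside 6.57%. In CD45.1 monocytes Sirpa averaged 235 and 175 and Siglece 18.3 and 26.7, 2 of 9 beside 8.89%. Siglec1 in CD45.2 monocytes at 32-weeks averaged 19.7 and 13.4, 1 of 9 beside 6.39%. None of the 9 separated the exposures in TR-AΦ (5.98% of all genes) or BM-AΦ (6.44%) at 32-weeks. The adjusted p of all these genes were 0.946 or more in limma.

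The partners of these receptors were read from 6 lists of genes. Each share of all genes given above for the comparison is the background of these counts as well. Of 12 ITIM effectors and kinases, 2 were higher and 9 lower in AΦ than in monocytes at 4-weeks, 2 and 7 for CD45.1, and 0 and 6 for CD45.2 cells. The list's median was -0.74, -0.34 and -0.25. Lyn, a kinase that phosphorylates ITIMs, was 60.2 to 88.9 FPKM in TR-AΦ and 178 to 262 in monocytes (-1.45, adjusted p = 6.47e-09). Inpp5d, which encodes the phosphatase SHIP1, was 20.1 to 24.3 and 39.2 to 52.5 in CD45.2 cells at 32-weeks (-1.05, adjusted p = 1.69e-09). Dok2, an adaptor of CD200R, was on the side of AΦ at 4-weeks, at 7.37 to 13.4 and 0.894 to 6.72 (1.20, adjusted p = 0.00141). For CD45.1 cells Dok2 was also higher (0.80, adjusted p = 0.0265). Dok1, another Dok adaptor, was lower in AΦ for CD45.2 cells at 32-weeks, at 3.49 to 5.59 and 8.59 to 13.3 (-1.12, adjusted p = 3.81e-08). In CD45.2 monocytes 2 of the 12 rose and 6 fell with time. Src rose by 1.61, whereas Fgr (-1.33) and Ptpn6 (-1.08), which encodes SHP-1, fell.

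Of 24 paired activating receptors and adaptors, 16 were in the table and 14 were tested against monocytes. At 4-weeks 3 were higher and 9 lower in AΦ, followed by 2 and 8 for CD45.1 and 2 and 6 for CD45.2 cells, with medians of -0.78, -0.55 and -0.23. Cd200r4, an activating relative of CD200R, was 28.0 to 59.6 FPKM in TR-AΦ and 0.565 to 3.76 in monocytes (4.10, adjusted p = 3.88e-11). Pira2, an activating relative of PIR-B, was higher in AΦ at 32-weeks, by 1.12 (CD45.1) and 0.94 (CD45.2), while Pirb was lower. Treml4 was 8.24 to 19.4 FPKM in TR-AΦ and 105 to 341.0 in monocytes (-3.87). With time 2 rose and 6 fell in CD45.2 monocytes. Siglech, a Siglec that signals through DAP12 and marks plasmacytoid dendritic cells and some macrophages, rose from 0 to 1.71 FPKM to 4.65 to 9.85 (2.64, adjusted p = 8.24e-05). Trem2 rose by 1.89, and Trem1 fell by 2.16 on the log2 scale.

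Of 5 other Siglecs, 4 were in the table and 3 were tested, with 2 higher and 0 lower in AΦ at 4-weeks and for CD45.1 cells, and 2 and 1 for CD45.2 cells. Their medians were 2.36, 1.95 and 1.65. Cd22, a Siglec best known from B cells, was 22.0 to 35.5 FPKM in TR-AΦ and 3.64 to 6.92 in monocytes at 4-weeks (2.36, adjusted p = 5.95e-11). Mag, the myelin-associated Siglec, was 2.89 to 7.62 and 0 to 0.136 (2.62, adjusted p = 1.06e-12). The 1 that was lower was Siglech. With time 1 rose and 1 fell in CD45.2 monocytes.

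Of 21 other myeloid inhibitory receptors 14 were tested, with 1 higher and 7 lower in AΦ at 4-weeks and 2 and 8 in both comparisons at 32-weeks, and medians of -0.73, -0.54 and -0.83. Ceacam1 was 0.673 to 11.3 FPKM in TR-AΦ and 117 to 281 in monocytes (-5.63, adjusted p = 4.69e-12), and Cd300a was 1.41 to 8.55 and 43.3 to 125 (-3.99). Cd300lf was on the side of AΦ, at 43.2 to 72.4 and 8.64 to 26.5 (1.83). With time in CD45.2 monocytes 2 rose and 2 fell. Fcgr2b, the inhibitory Fc receptor, rose from 74.0 to 131 FPKM to 181 to 455 (1.60), and Pilra fell from 59.7 to 126 FPKM to 10.5 to 57.5 (-1.78).

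Sialic acid, the ligand of the Siglecs, is made, attached and removed by the products of the genes of another list, of which 15 of 18 were tested. Against monocytes 4 were higher and 9 lower in AΦ at 4-weeks, 4 and 8 for CD45.1, and 3 and 9 for CD45.2 cells, with medians of -1.01, -0.45 and -0.63. Neu1, a sialidase, was 28.2 to 34.4 FPKM in TR-AΦ and 14.1 to 19.2 in monocytes (0.89). St3gal5 was 0 to 0.743 and 13.4 to 27.4 (-4.09), and St8sia4, a polysialyltransferase, was 3.63 to 12.5 in BM-AΦ and 43.7 to 123 in CD45.1 monocytes (-2.91). With time 2 rose and 3 fell in CD45.2 monocytes. St6gal1, which makes α2,6-linked sialic acid, rose from 8.24 to 12.6 FPKM to 20.8 to 30.0 (1.28).

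Of 7 further ligands of CD47, SIRPα and PIR-B 4 were tested against monocytes, with 0 higher and 4, 1 and 2 lower, and medians of -1.18, -0.27 and -0.36. Thbs1, which encodes the CD47 ligand thrombospondin-1, was 0.104 to 32.1 FPKM in TR-AΦ and 289 to 793 in monocytes at 4-weeks (-7.05, adjusted p = 1.15e-08). B2m, the light chain of the MHC class I ligands of PIR-B, was 786 to 1308 and 1538 to 2990 (-1.26). In CD45.2 monocytes 2 of 5 tested fell with time, H2-K1 (-0.75) and H2-D1 (-0.53), both MHC class I heavy chains. In TR-AΦ, Fcer1g (0.42), an adaptor of activating receptors, and Neu1 (0.30) rose with time past the threshold. Between origins Siglech (0 to 1.94 and 4.65 to 9.85 FPKM, a difference of -2.47, adjusted p = 0.000420) and St3gal6 (-1.99, adjusted p = 0.0340) were lower in CD45.1 than in CD45.2 monocytes. No gene of any list passed in the 6 comparisons of PM2.5 with FA (limma).

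Likeness of pattern was measured by Pearson's r over the 12 group means, which AΦ and monocytes divide, as a description. Closest to Siglecf were Myo7a (r = 0.999), Mfsd7c and Kcnn3, to Siglec1 Qdpr (0.997), Lrp12 and Actn1, and to Cd200r1 1110051M20Rik (0.997), Manba and Ptgfrn. Sirpa lay nearest Ccnd2 (0.993), Cd200 nearest Dnmt1 (0.993), Pirb nearest Tnfrsf1a (0.993), Cd47 nearest Stt3b (0.986), Cd33 nearest Gpr146 (0.981) and Siglece nearest Rbm26 (0.966).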

How the data were processed

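RNA of sorted AΦ and monocytes was sequenced from SMART-Seq Stranded libraries. Per the study's methods, reads were aligned to mm10 with STAR and the authors deposited FPKM from Cufflinks, with 1 column for each of the 36 libraries.

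Values were tested on the log2(FPKM + 1) scale by limma 3.58.1 (R 4.3.3), with a trend and 1 mean per group. The filter was a mean of 1 FPKM or more, which left 12665 genes in AΦ, 12856 in monocytes and 13307 in both. The p were adjusted by Benjamini-Hochberg over all of them, with a threshold of 0.05. Time, origin and cell type were averaged over both exposures. Libraries were treated as unpaired, since the labels tie no number to a mouse or batch. No pair of groups correlated above 0.1 in every number, but this does not show that the number can be ignored. In all 6 AΦ groups 5.91% of 12665 genes were highest in the same number, and the AΦ marker sum was lowest in number 0 in 12 of 12 groups. Calls with a replicate block are therefore given below. The genes named from a list were among the 2 per direction with the largest difference past the threshold in a comparison. Members and lists were chosen with earlier results of these data known. Alternatives were a pseudocount of 0.1, no filter, quantile normalization, a replicate block, single exposures, only the groups compared, and libraries left out. The procedure was tested on simulated data. Results for some genes of the lists are not reported here. Genes and promoters were placed with GENCODE and RefSeq on GRCm38.p6. The paper states a general sequencing depth, but the depth of each library is unknown. Precision therefore rests on the spread between libraries, which come from separate mice within a group. Figures were drawn with matplotlib 3.10.9.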

Additional observations from a re-analysis of the deposited data

Results flagged for a closer look

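Cd33 is listed because its change with time differed between cell types, by the test of the interaction. The change of TR-AΦ minus that of CD45.2 monocytes was -1.24 on the log2(FPKM + 1) scale (SE 0.32, adjusted p = 0.0130 in limma), from 0.23 in TR-AΦ and 1.48 in monocytes. Without the 4-weeks monocyte libraries numbered 2 and the 32-weeks CD45.2 PM2.5 library 1, an alternative chosen after seeing the data, it was -1.01 with an adjusted p of 0.0667. With the PM2.5 libraries alone it was -0.83 (adjusted p = 0.519), and with the FA libraries alone -1.66 (adjusted p = 0.0387).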

How the results depend on the processing

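The number of the 9 genes past the threshold in TR-AΦ with time was 1, against 0 with FA libraries only, and 1 to 2 with a library left out. In CD45.2 monocytes with time it was 4, against 2 with FA libraries only, 1 with PM2.5 libraries only, 2 with only the groups compared, 3 in both settings that left out monocyte libraries after seeing the data, and 2 to 4 with a library left out. Between origins in AΦ it was 0, against 1 (Siglec1, adjusted p = 0.0400) with no filter on low values. For time by cell type it was 1, against 2 with quantile normalization, 0 with PM2.5 libraries only, 0 with the 3 monocyte libraries left out (chosen after seeing the data), and 1 to 3 with a library left out. The interaction of Cd200 with exposure and origin ran from -0.69 to 0.30 with a library left out, and was above 0 at 0.25, 0.30, 0.09 and 0.11. The causes were not tested, beyond the smaller number of libraries in the settings that leave some out.

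The replicate block gave 3 for time by cell type (Cd47, Siglece and Cd33), and 5 for time in monocytes, where Cd47 was added (-0.35, adjusted p = 0.0398). It also passed Cd33 in CD45.1 AΦ against monocytes (0.49, adjusted p = 0.0135), and it changed no other call. Of all genes, 748 were called with time in TR-AΦ, against 1308 with the replicate block, 378 with only the groups compared, and 99 and 133 with FA and PM2.5 libraries only. In CD45.2 monocytes with time 1914 were called, against 927 and 311 with single exposures, 1156 without the 4-weeks libraries numbered 2 and 812 without 3 libraries. Between origins 40 were called in AΦ, against 85 with the block, 62 with no filter, 78 with only the groups compared, and 6 and 2 with single exposures. In monocytes 86 were called, against 144 with the block, 149 with no filter, and 20 and 16 with single exposures. Time by cell type called 1049, against 392 and 165 with single exposures and 529 without 3 libraries. Origin by cell type called 144, against 12 and 8. For PM2.5 against FA, where 0 to 2 were called in each population, the most under any alternative was 11, in 4-weeks monocytes with only the groups compared. The depth of each library is unknown and bounds low genes such as Cd200 in an unmeasured way.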

Other observations

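Some of the 9 genes ranked alike by library number within groups. Cd47 was highest in the library numbered 2 in 12 of the 12 groups, a pattern shown by 1.03% of 13307 genes. Pirb was highest in that library in 6 of 6 AΦ groups (4.41% of 12665 genes), and Cd33 was highest in the library numbered 1 in 6 of 6 AΦ groups (0.292%). The summed FPKM of the AΦ markers was highest in the library numbered 2 in 11 of the 12 groups and lowest in the library numbered 0 in 12 of 12. The labels give no shared date or batch for a number.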
